A study of Mus musculus with 6 samples.

Results

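The genes described here encode 5 proteins of the nuclear lamina and envelope (Lmna, Lmnb1, Lmnb2, Lbr and Sun1) and 5 high mobility group (HMG) proteins of chromatin (Hmgb1, Hmgb2, Hmgb3, Hmga1 and Hmga2). They were chosen by symbol, as the 10 rows of the 32061 in the count table that carry these names. Of the 10, 9 had enough reads to be tested among 12949 genes. The remaining gene, Hmga2, had 4 reads in all.

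Polyadenylated RNA was sequenced from hepatocytes that had been isolated from mice aged 10 to 12 weeks, in 3 senescent and 3 healthy libraries. Mice of the senescent group had the genotype AhCre+Mdm2fl/fl, in which a Cre recombinase under an aryl hydrocarbon receptor responsive promoter deletes Mdm2, the gene of the ubiquitin ligase that holds p53 down. Healthy controls were AhCre-, and all 6 libraries, controls included, came from mice treated with β-naphthoflavone, the inducer of that promoter, at 20 mg/kg for 48 h. Control Mdm2 alleles were not given in the sources used here. The Cre transgene and the loss of Mdm2 therefore cannot be told apart, and since nothing states that each library is a separate animal, p-values measure only the spread between these libraries.

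Lamins are intermediate filament proteins that line the inside of the nuclear envelope. Lmna gives rise to lamins A and C, which stiffen the nucleus, whereas Lmnb1 and Lmnb2 encode the B-type lamins, which stay anchored in the membrane by a farnesyl group. HMGB proteins bend DNA and HMGA proteins bind the minor groove of A/T-rich DNA; HMGB1 also acts outside the cell as an alarm signal. In cultured senescent fibroblasts, loss of lamin B1 and of HMGB2, release of HMGB1 from the nucleus and a build-up of HMGA proteins on condensed chromatin are textbook features.

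Total counts ran from 28799392 to 33267299 per library. Mdm2 was at 462.8 to 501.3 CPM (reads scaled to a common library size) in the senescent and 19.03 to 22.7 CPM in the healthy libraries, a count over the whole gene that does not check the deleted part. Summed markers of hepatocytes were at 84704 to 97246 CPM in senescent and 146771 to 171502 CPM in healthy libraries. Alb alone had means of 51520 CPM in senescent and 90316 CPM in healthy libraries. Among the 10 markers 8 fell and 0 rose (6 and 0 with total library size), and Cps1 and Hnf4a were not called. Over all genes tested 20.7% were called lower (9.92% with total library size). Of 15 tested macrophage markers 4 rose and 0 fell (14 and 0 with reads scaled to total library size), and of 13 stellate cell markers 6 rose and 0 fell (8 and 0), where 20.4% of all genes tested were called higher (37.5% with total library size), while all 11 T, B and NK cell markers were too low to test (sums of 0.424 to 1.77 CPM). Some macrophage markers, such as Ccr2, passed the read filter only through the senescent libraries, so for them only a rise could be found. In bulk libraries such as these, fewer cells of a type and less RNA per cell cannot be told apart.

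Of the 9 tested genes 4 rose (Lmna, Hmga1, Hmgb2 and Hmgb3) and 1 fell (Hmgb1). Lmnb1, Lmnb2, Lbr and Sun1 were not called. Called here means a Benjamini-Hochberg adjusted p under 0.05 in edgeR's quasi-likelihood test over all genes, and 41.1% of all genes tested were called by that rule, 20.4% as higher and 20.7% as lower, so a count of 5 in 9 stands near the background. The same 5 genes were those whose groups did not overlap, which held for 54.0% of all genes. The median log2 fold change of the 9 tested genes was -0.06, against 0.01 over all genes tested. With reads scaled to total library size, instead of by the trimmed mean of M-values (TMM) used throughout, the median over all genes was 0.33 and that of the 9 was 0.27, and the same 4 rises were called with no fall, where 37.5% of all genes were called higher and 9.92% lower. Leaving out senescent replicate 1 or 3 or healthy replicate 3 took the rises from 4 to 2, Hmgb2 and Hmgb3 being lost.

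**Figure D1:**
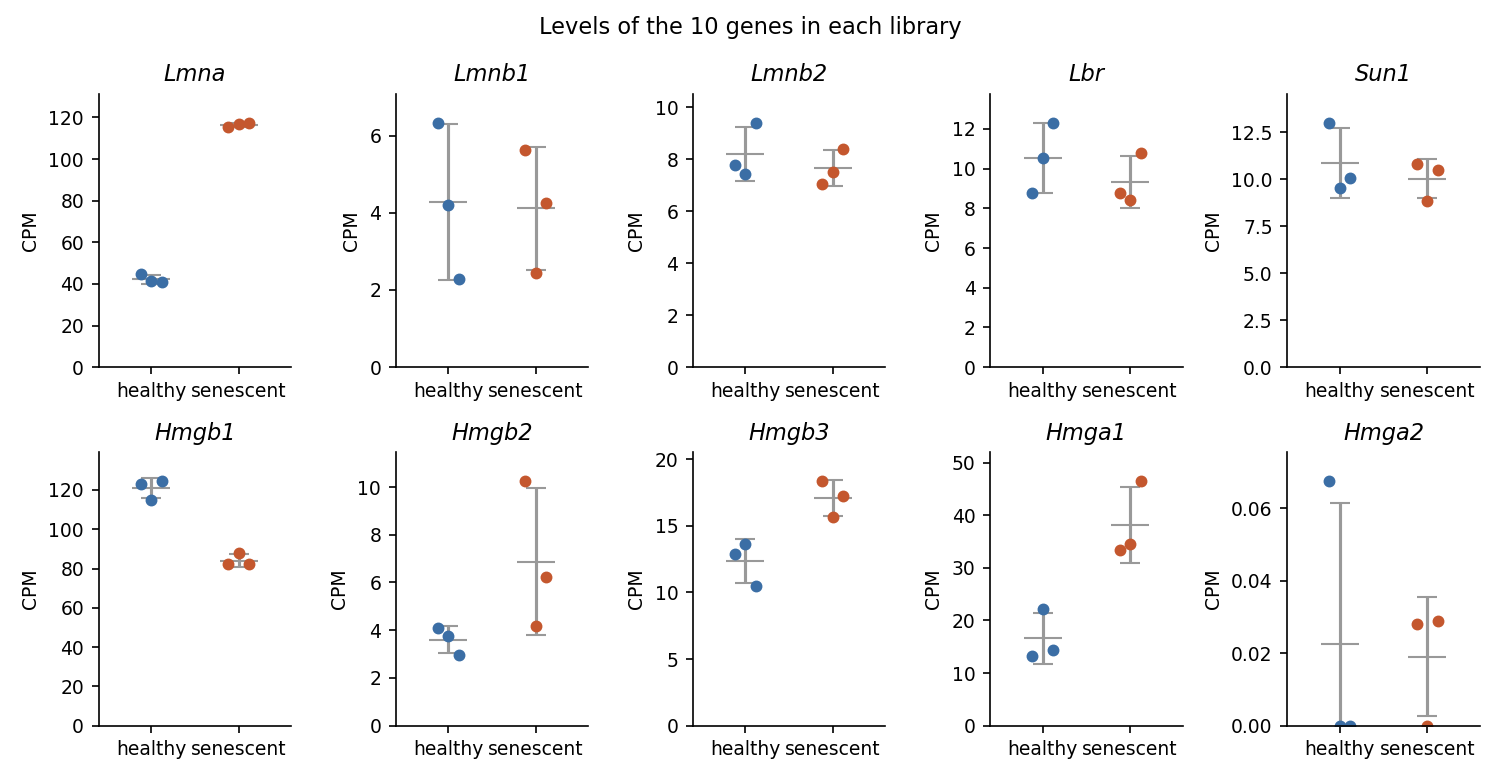
Level in CPM (vertical axis, from 0, a separate scale for each gene) of the 10 genes in 3 healthy and 3 senescent libraries. Points are libraries, and bars are the mean and SD over n = 3. Lmna, Hmga1 and Hmgb1 separate the groups by wide gaps, Hmgb2 only just (4.17 against 4.08 CPM), and Hmga2 is near 0 throughout.

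Lmna (ENSMUSG00000028063; GRCm38 chromosome 3, 88480147 to 88509956, minus strand), the A-type lamin gene, had the largest rise of the 9. It stood at 115, 117 and 117 CPM in senescent replicates 1, 2 and 3 and at 44.8, 41.2 and 40.9 CPM in the healthy ones. The libraries of each group lay close together and the groups were far apart. The mean went from 42.3 ± 2.16 to 116 ± 1.11 CPM (SD, n = 3), a log2 fold change of 1.46 ± 0.10 (SE; edgeR adjusted p = 2.4e-05), or 2.75-fold with a 95% interval of 2.34 to 3.23. Of all genes tested 89.8% had a smaller change in absolute log2 terms. The call held in all 17 alternative settings, with log2 fold changes of 1.43 to 1.77.

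The B-type lamin genes did not follow. Lmnb1 (ENSMUSG00000024590; chromosome 18, 56707813 to 56753424, plus strand), whose loss marks senescence in culture, had 5.64, 2.45 and 4.26 CPM in the senescent and 6.33, 4.203 and 2.30 CPM in the healthy libraries. Both groups spanned nearly the same range, with a coefficient of variation of 38.9% and 47.2%, the widest of the lamina genes. The log2 fold change was -0.06 ± 0.40 (edgeR adjusted p = 0.92). Its 95% interval runs from 0.509-fold to 1.81-fold. The sign turned positive without senescent replicate 2 (0.25), without healthy replicate 1 (0.34) and with total library size (0.27).

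Lmnb2 (ENSMUSG00000062075; chromosome 10, 80901203 to 80918245, minus strand), the second B-type lamin gene, was steadier. Its senescent libraries held 7.03, 7.52 and 8.39 CPM and its healthy ones 7.78, 7.43 and 9.40 CPM, with overlap. The log2 fold change was -0.10 ± 0.15 (edgeR adjusted p = 0.62), with a 95% interval of 0.733-fold to 1.18-fold.

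The makeup of the lamin transcripts therefore differed through Lmna. On the FPKM scale, CPM divided by exon length in kilobases, which allows genes to be set side by side, Lmna was 66.0%, 69.1% and 70.2% of the 3 lamin genes in healthy replicates 1, 2 and 3 and 84.8%, 88.6% and 85.6% in the senescent ones. The ratio of both B-type genes to Lmna was 0.462 ± 0.0476 in healthy and 0.159 ± 0.0265 in senescent libraries (SD, n = 3). The groups did not overlap, and the exact two-sided permutation p of 0.1 is the smallest that 3 against 3 libraries can give.

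Lbr (ENSMUSG00000004880; chromosome 1, 181815335 to 181843046, minus strand) encodes the lamin B receptor, an inner membrane protein that holds heterochromatin at the envelope and is also a sterol C14 reductase. It was at 8.76, 8.39 and 10.8 CPM in senescent and 8.76, 10.5 and 12.3 CPM in healthy libraries, with overlap. The log2 fold change was -0.18 ± 0.17 (edgeR adjusted p = 0.43; 95% interval 0.676-fold to 1.157-fold). The gene of the other C14 reductase, Tm7sf2, fell from 219 ± 40.1 to 63.5 ± 2.60 CPM (log2 fold change -1.78 ± 0.15, edgeR adjusted p = 6.7e-05). It was among 9 called falls in 12 late sterol synthesis genes (8 with total library size), where 20.7% of all genes tested were called lower (9.92%). Whether the changes of Lbr and Tm7sf2 differ was not tested.

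Sun1 (ENSMUSG00000036817; chromosome 5, 139200637 to 139249840, plus strand) encodes an inner membrane protein that joins lamins to the cytoskeleton through nesprins, in the LINC complex. Its levels of 10.8, 8.83 and 10.5 CPM in senescent and 13.0, 9.53 and 10.1 CPM in healthy libraries overlapped. The log2 fold change was -0.12 ± 0.16 (edgeR adjusted p = 0.59; 95% interval 0.715-fold to 1.19-fold). With total library size the signs of Lmnb2, Lbr and Sun1 turned positive (0.21, 0.14 and 0.20), still with no call, and single libraries left out also turned Lmnb2 and Sun1.

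**Figure D2:**
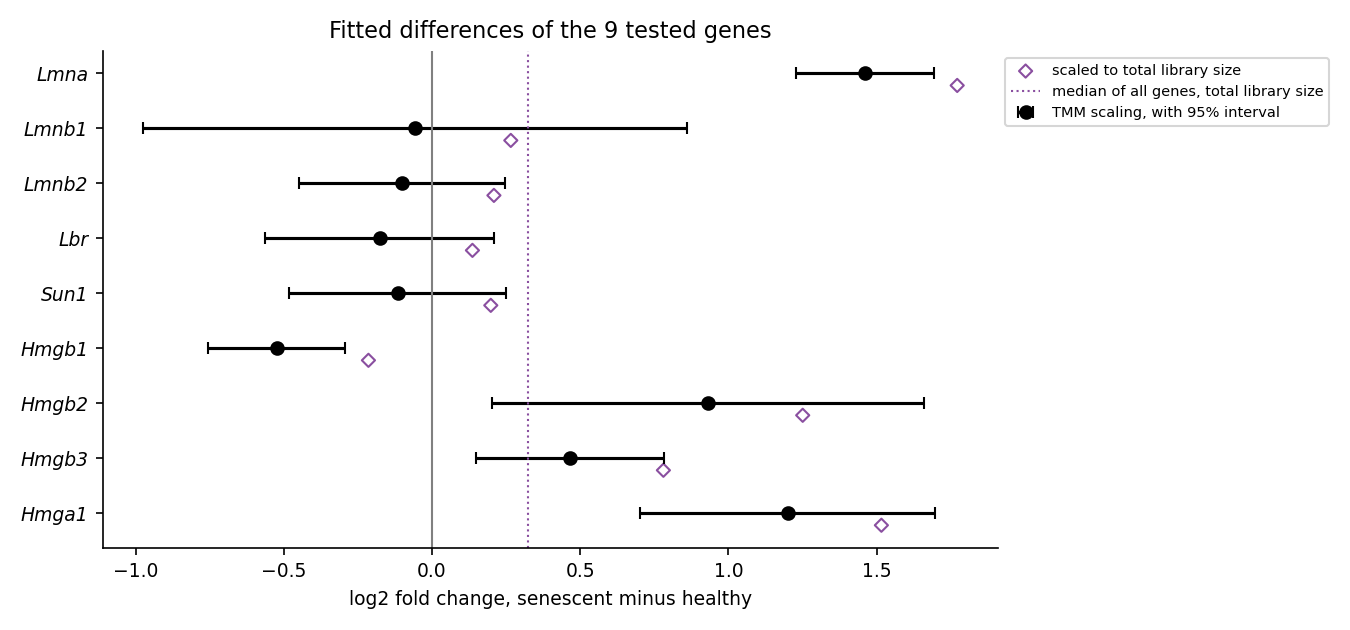
Log2 fold change of the 9 tested genes (horizontal axis, senescent minus healthy), with 95% intervals from edgeR under TMM scaling (filled circles) and the value under total library size (open diamonds). Total library size moves every gene to the right along with the median of all genes at 0.33 (dotted line), and Hmgb1 is the only one of the 9 that is negative under both.

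The HMGB family moved apart. Hmgb1 (ENSMUSG00000066551; chromosome 5, 149046702 to 149184489, minus strand), whose product is among the most abundant non-histone chromatin proteins, fell. Hmgb2 (ENSMUSG00000054717; chromosome 8, 57511907 to 57515999, plus strand), a paralog known from dividing cells, and Hmgb3 (ENSMUSG00000015217; chromosome X, 71555918 to 71560676, plus strand), known from stem and progenitor cells, rose. The stretches before their transcription starts are shown because the 3 paralogs differ in direction. Each is 125 bases that end just before the start site RefSeq gives on GRCm38.p6, at chr5:149053058-149053182 (minus strand), chr8:57511718-57511842 and chrX:71555792-71555916 (both plus strand). They run 5′ to 3′, with the CCAAT box (CCAAT) and the cell cycle homology region (CHR, TTTGAA) in capitals.

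Hmgb1: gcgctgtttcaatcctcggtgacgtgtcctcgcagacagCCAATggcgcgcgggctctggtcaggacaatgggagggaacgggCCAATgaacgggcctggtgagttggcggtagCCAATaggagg
Hmgb2: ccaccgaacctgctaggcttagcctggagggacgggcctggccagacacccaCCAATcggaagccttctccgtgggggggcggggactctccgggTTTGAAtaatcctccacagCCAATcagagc
Hmgb3: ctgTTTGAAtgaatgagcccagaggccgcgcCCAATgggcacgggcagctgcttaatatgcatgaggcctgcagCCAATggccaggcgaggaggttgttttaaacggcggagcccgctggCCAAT

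Searched on both strands over the full window, 250 bases before to 50 after the start, CHR letters were found 2 times in Hmgb2, 1 time in Hmgb3 and 0 times in Hmgb1, and CCAAT 4, 3 and 3 times. Of 32851 windows of that length in the RefSeq table, 17.9% hold TTTGAA and 37.4% hold CCAAT. The E2F letters TTTCGCGC or TTTGGCGC, present in 0.8% of windows, and the p53 half-site consensus, present in 8.4%, were in none of the 3. A second Hmgb1 window, at another start, held none of these letters. Among the other genes Lbr had 1 CHR match, and a p53 half-site match lay in 1 of the 2 windows of Lmna and of Sun1. The Lmna windows belong to starts 6604 and 16644 bases inside the annotated gene. Likewise, the Hmgb1 window shown belongs to a start 131432 bases inside its gene, and the Sun1 window with the match to a start 14521 bases inside. These matches describe letters and not binding, and windows were matched for 9 of the 10 genes.

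Hmgb1 was at 82.2, 88.0 and 82.1 CPM in the senescent and 123, 115 and 124 CPM in the healthy libraries. Every senescent library was below every healthy one. The mean went from 121 ± 5.16 to 84.1 ± 3.38 CPM (SD, n = 3), a log2 fold change of -0.52 ± 0.10 (edgeR adjusted p = 0.0044), or 0.696-fold with a 95% interval of 0.592 to 0.817. Scaled to total library size the log2 fold change was -0.21 and was not called (edgeR adjusted p = 0.11), the single setting of 17 without the call. On that scale the libraries held 92.3, 93.7 and 94.6 CPM in senescent and 110.0, 103 and 113 CPM in healthy cells and still did not overlap.

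Hmgb2 was at 10.2, 4.17 and 6.22 CPM in senescent replicates 1, 2 and 3 and at 4.08, 3.77 and 2.97 CPM in the healthy ones. Senescent replicate 1 was far above the other 2 and replicate 2 barely above healthy replicate 1. The log2 fold change was 0.93 ± 0.32 (edgeR adjusted p = 0.046), or 1.91-fold with a 95% interval of 1.15 to 3.16. The call was lost without senescent replicate 1 (log2 fold change 0.56, edgeR adjusted p = 0.13) or 3 (0.079), without healthy replicate 1 (0.065), 2 (0.098) or 3 (0.11), and with limma-voom (0.086). It was kept without senescent replicate 2 (1.23, edgeR adjusted p = 0.011).

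Hmgb3 was at 18.3, 15.7 and 17.2 CPM in senescent and 12.9, 13.7 and 10.5 CPM in healthy libraries, with no overlap. The log2 fold change was 0.47 ± 0.14 (edgeR adjusted p = 0.027), or 1.38-fold with a 95% interval of 1.11 to 1.72. Leaving out senescent replicate 1 (edgeR adjusted p = 0.062) or 3 (0.065), or healthy replicate 3 (0.058), ended the call while the sign stayed positive.

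Summed, the HMGB transcripts stood at 30.8 ± 0.765 FPKM in healthy and 26.7 ± 1.13 FPKM in senescent libraries (SD, n = 3). Scaled to total library size the order turned, with 27.6 ± 0.633 FPKM in healthy and 29.7 ± 1.94 FPKM in senescent libraries, and the groups overlapped. Within each library, where scaling has no part, Hmgb1 made up 77.5%, 75.6% and 81.3% of the 3 genes in the healthy and 58.5%, 67.6% and 62.6% in the senescent libraries. The ratio of Hmgb3 to Hmgb1 in FPKM was 0.231 ± 0.0389 in healthy and 0.458 ± 0.0523 in senescent libraries, and that of Hmgb2 to Hmgb1 was 0.0501 ± 0.00877 and 0.138 ± 0.0654 (SD, n = 3). None of these ratios overlapped between groups (exact two-sided permutation p = 0.1 for each, the smallest possible). Of the 75-base stretches of their transcripts, 20.5% in Hmgb1, 17.5% in Hmgb2 and 17.5% in Hmgb3 also occur in other annotated genes. Part of their reads may therefore have been dropped or placed elsewhere. The copies Hmgb1-ps5 and Hmgb1-ps6 together held 1.32% to 1.97% of the Hmgb1 count, and with them added the log2 fold change of Hmgb1 was still -0.52. In all, 86 other annotated genes share such stretches with Hmgb1, Gm21596 the most (17.7%), so these 2 copies do not account for all of them. Copies of Hmgb2 and Hmgb3 were not added.

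Hmga1 (ENSMUSG00000046711; chromosome 17, 27556497 to 27563674, plus strand), which encodes an architectural protein that opens chromatin in dividing and tumour cells, rose. Its senescent libraries held 33.4, 34.5 and 46.5 CPM and its healthy ones 13.2, 22.2 and 14.5 CPM. The groups did not overlap, and within each group 1 library stood above the other 2. The mean went from 16.6 ± 4.86 to 38.1 ± 7.24 CPM (SD, n = 3), a log2 fold change of 1.20 ± 0.22 (edgeR adjusted p = 0.0033), or 2.30-fold with a 95% interval of 1.63 to 3.24. All 17 alternative settings called it, at an adjusted p under 0.01 as well as in each fit without a library.

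A near-identical gene, Hmga1b, shares 46.9% of the 75-base stretches of Hmga1, so the split between them is uncertain. The exons of Hmga1 also overlap those of AI413582 on the opposite strand by 102 bases, and AI413582 had 367 reads in all 6 libraries. Hmga1 had 1.97 to 2.38 times the count of Hmga1b in healthy and 2.11 to 2.21 times in senescent libraries. Both rows summed went from 24.04 ± 6.49 to 55.8 ± 10.2 CPM, and with the copies added the log2 fold change was 1.22 (edgeR adjusted p = 0.0024).

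Hmga2 (ENSMUSG00000056758; chromosome 10, 120361275 to 120476469, minus strand), the fetal member of the HMGA family, was close to absent in both groups. It had 1, 0 and 1 reads in senescent replicates 1, 2 and 3 and 2, 0 and 0 reads in the healthy ones. By counting error alone, 0 reads would still allow for 3, which is 0.0837 to 0.117 CPM depending on the library, and no library reached that many. No fold change can be given. Of the LIN28 and IGF2BP genes listed with it, several of which oppose or are held down by the let-7 miRNAs that also hold HMGA2 down, Lin28b, Igf2bp1 and Trim71 had 0 reads in all 6 libraries.

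Levels per length put the genes in a different order in the 2 groups. In healthy libraries Hmgb1 led at 24.1 ± 1.03 FPKM, followed by Hmga1 at 7.82 ± 2.29, Lmna at 7.24 ± 0.370 and Hmgb3 at 5.53 ± 0.738 FPKM (SD, n = 3). Hmga1 and Lmna overlapped there. In senescent libraries Lmna led at 19.9 ± 0.191 FPKM, followed by Hmga1 at 17.9 ± 3.41, Hmgb1 at 16.7 ± 0.674 and Hmgb3 at 7.64 ± 0.602 FPKM. Hmga1 overlapped both of its neighbours, but all 3 values of Lmna (19.7 to 20.1 FPKM) were above all 3 of Hmgb1 (16.3 to 17.5 FPKM), the reverse of the healthy order. The other 5 tested genes, Lbr, Lmnb2, Lmnb1, Sun1 and Hmgb2, had group means of 1.20 to 2.29 FPKM in both groups, and neighbours among them overlapped. These levels rest on the combined exon length of every annotated transcript, which understates a gene that uses short ones.

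**Figure D3:**
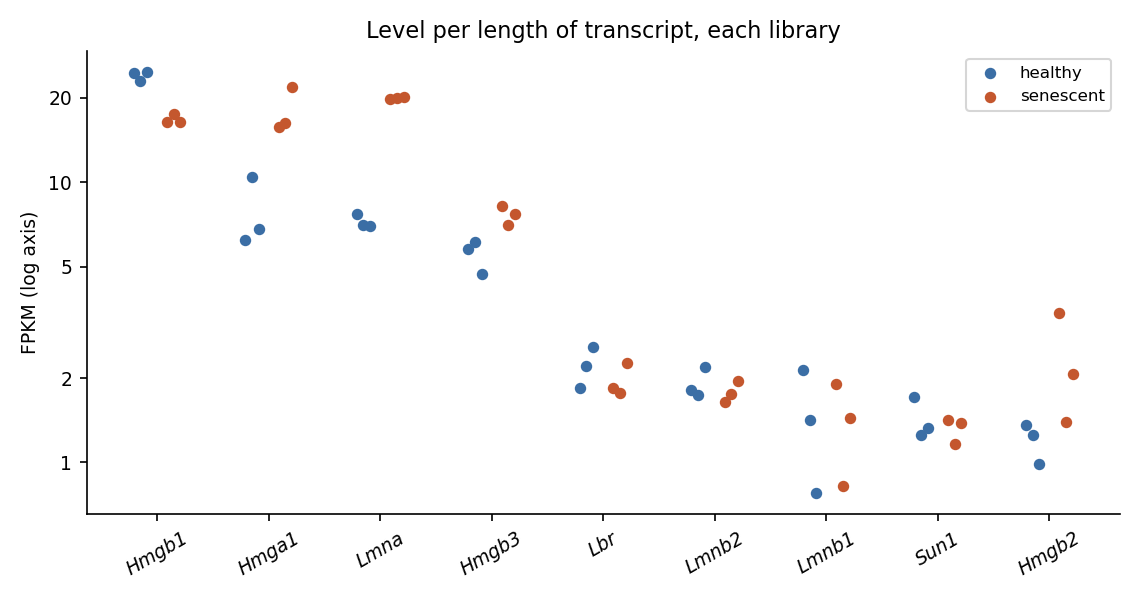
FPKM (log axis) of the 9 tested genes in each library, ordered by the healthy mean, with healthy libraries in blue and senescent ones in orange. Hmgb1 lies highest in healthy cells at 22.9 to 24.8 FPKM, whereas Lmna, Hmga1 and Hmgb1 come together at 15.7 to 21.9 FPKM in senescent cells.

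Lmnb1 and Hmgb2 are known to be at higher levels in dividing cells, so their values were set beside cell cycle genes. Of 24 tested G2 and mitosis genes all 24 rose, and of 23 DNA replication genes 11 rose and 1 fell (19 and 1 with total library size). Over all genes tested, 20.4% were called higher and 20.7% lower (37.5% and 9.92% with total library size). Some G2 genes, such as Ttk and Plk1 (means of 0.0697 and 0.132 CPM in healthy libraries), had enough reads only in senescent libraries. For such genes only a rise could be found, so the count of 24 is partly set by the filter. The G2 and mitosis genes summed to 81.4, 35.4 and 78.3 CPM in senescent replicates 1, 2 and 3 and to 13.9, 6.07 and 5.83 CPM in the healthy ones. In each group the library with the highest sum also had the highest Hmgb2 and Lmnb1, and senescent replicate 2 was the lowest of its group in all of these measures. The groups did not overlap in these sums or in Hmgb2, whereas they overlapped in Lmnb1.

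Macrophage markers differed between the same libraries. They summed to 388, 254 and 501 CPM in the senescent and 227, 268 and 99.6 CPM in the healthy libraries, and the 4 that rose under TMM scaling (14 with total library size), named after their values were seen, were Cd68, Vsig4, Cd14 and Ccr2. Of these, Ccr2 passed the read filter only through the senescent libraries, so for it only a rise could be found. In the macrophage sum senescent replicate 2 was again the lowest of its group. The highest macrophage sums, in senescent replicate 3 and healthy replicate 2, were not in the libraries with the highest G2 and mitosis sums. Neutrophil markers (3 of 8 tested) summed to 3.06 to 3.97 CPM in senescent and 0.601 to 1.38 CPM in healthy libraries, stellate cell markers to 31.6 to 47.6 and 12.7 to 20.8 CPM, and cholangiocyte markers to 11.9 to 16.7 and 4.88 to 8.12 CPM. Endothelial markers overlapped, at 168 to 221 CPM in senescent and 147 to 207 CPM in healthy libraries. Of these 12 markers 2 rose and 0 fell (6 and 0 with total library size). Red cell markers overlapped as well, with 0 of 5 tested called. The part of these cells, or of cycling cells, in the values of Hmgb2, Hmgb3, Hmga1 and Lmna was not tested.

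**Figure D4:**
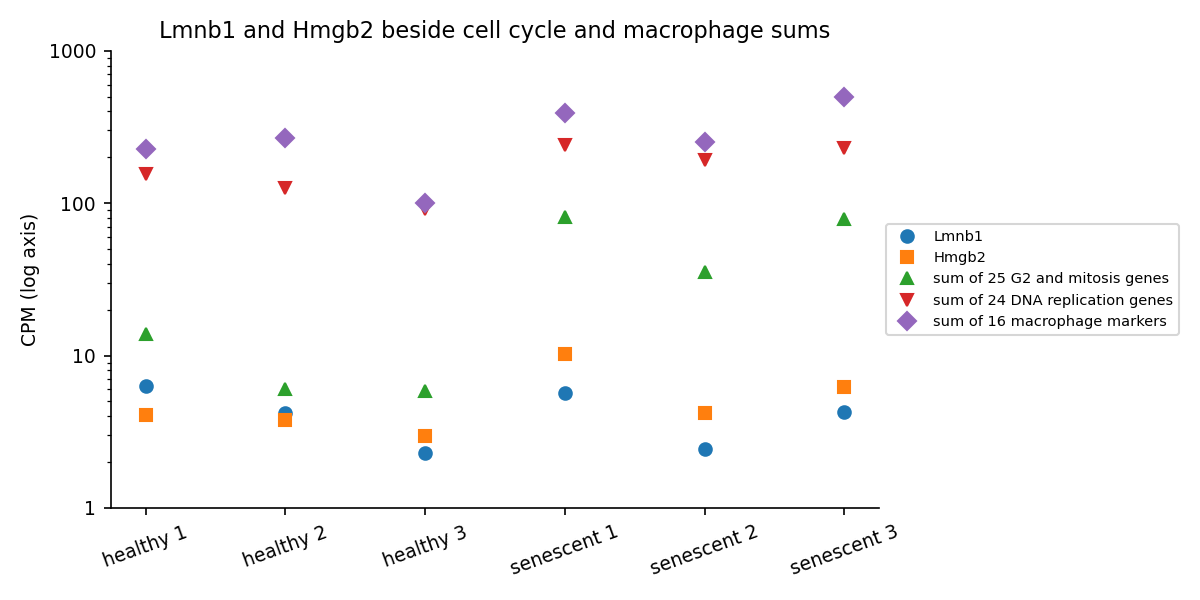
CPM (log axis) of Lmnb1 and Hmgb2 in each of the 6 libraries, beside the summed CPM of 25 G2 and mitosis genes, 24 DNA replication genes and 16 macrophage markers. Senescent replicate 2 is lowest of its group in each, and the G2 and mitosis sum is at 35.4 CPM or more in senescent and 13.9 CPM or less in healthy libraries.

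Partners of these proteins were counted from lists named for function, beside the background of 20.4% of genes called higher and 20.7% called lower. Of 17 inner membrane and LINC genes 4 rose and 2 fell, with a median log2 fold change of 0.19 (8 and 1 with total library size). Tmem43, which encodes an envelope protein that binds lamins and emerin, rose from 7.50 ± 1.46 to 104 ± 8.38 CPM (log2 fold change 3.79 ± 0.17, edgeR adjusted p = 2.3e-06), a larger change than that of any of the 9 genes. Tmpo, the gene of the LAP2 proteins that bind lamins and chromatin, rose from 32.5 ± 1.66 to 53.6 ± 4.44 CPM (edgeR adjusted p = 0.0015). Syne4, a nesprin gene, fell from 3.22 ± 0.622 to 1.15 ± 0.676 CPM (edgeR adjusted p = 0.025), a call lost without senescent replicate 1 (0.058) or healthy replicate 1 (0.064). Tor1aip2, whose product activates torsin ATPases, fell from 125.2 ± 9.93 to 95.7 ± 4.94 CPM (edgeR adjusted p = 0.023). That call was lost with total library size (0.57) and without any of 4 libraries, senescent replicates 1 (0.073), 2 (0.077) and 3 (0.12) and healthy replicate 1 (0.053).

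Enzymes that mature lamins were mixed, with 1 rise and 2 falls among 5. Zmpste24, the protease that cuts prelamin A, rose from 58.7 ± 5.44 to 83.4 ± 9.56 CPM (edgeR adjusted p = 0.014, but 0.057 without healthy replicate 2). Fnta, the shared alpha subunit gene of farnesyltransferase, fell from 32.7 ± 1.87 to 24.3 ± 1.67 CPM (edgeR adjusted p = 0.013, but 0.36 with total library size and 0.091 without senescent replicate 3). Rce1, a protease of farnesylated proteins, fell from 7.99 ± 1.29 to 5.51 ± 0.509 CPM (edgeR adjusted p = 0.036), and the call was lost without any 1 of senescent replicates 1, 2 and 3 and healthy replicates 1 and 2 (0.052 to 0.13) and with total library size (0.32).

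Among nuclear pore genes the calls were all rises. Of 27 tested 10 rose and 0 fell, with a median log2 fold change of 0.34, and with total library size 22 rose. Aaas, which encodes the pore protein aladin, went from 5.92 ± 0.599 to 122 ± 7.43 CPM (log2 fold change 4.36 ± 0.13, edgeR adjusted p = 4.3e-07) and Pom121, a membrane anchor of the pore, from 14.6 ± 2.38 to 40.0 ± 4.63 CPM (1.45 ± 0.15, edgeR adjusted p = 1.9e-04).

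Other HMG genes were split as well. Of 9 tested 2 rose and 1 fell, with a median of 0.21 (6 and 1 with total library size). Hmgn5, which encodes a nucleosome-binding protein that decompacts chromatin, fell from 55.8 ± 12.8 to 27.7 ± 2.49 CPM (log2 fold change -1.01 ± 0.18, edgeR adjusted p = 0.0027). Hmgn2, its family member, rose from 18.4 ± 4.98 to 29.1 ± 1.09 CPM (edgeR adjusted p = 0.022, but 0.055 without senescent replicate 3) and Hmg20b from 26.04 ± 3.97 to 47.5 ± 4.14 CPM (edgeR adjusted p = 0.0018).

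Genes of extracellular HMGB1 signalling were mostly low. Of 13 listed 7 were tested, and 2 rose and 1 fell (4 and 1 with total library size). Cxcl12, the chemokine that binds HMGB1, fell from 202 ± 82.7 to 47.1 ± 16.8 CPM (log2 fold change -2.10 ± 0.33, edgeR adjusted p = 0.0016). The receptor gene Tlr4 went from 0.359 ± 0.0662 to 1.13 ± 0.422 CPM and the thrombomodulin gene Thbd from 1.37 ± 0.857 to 3.86 ± 0.358 CPM (edgeR adjusted p = 0.013 and 0.018, but 0.054 and 0.059 without senescent replicate 3). Tlr4 passed the read filter only through the senescent libraries, so for it only a rise could be found. Ager, the gene of the receptor RAGE, was too low to test.

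**Figure D5:**
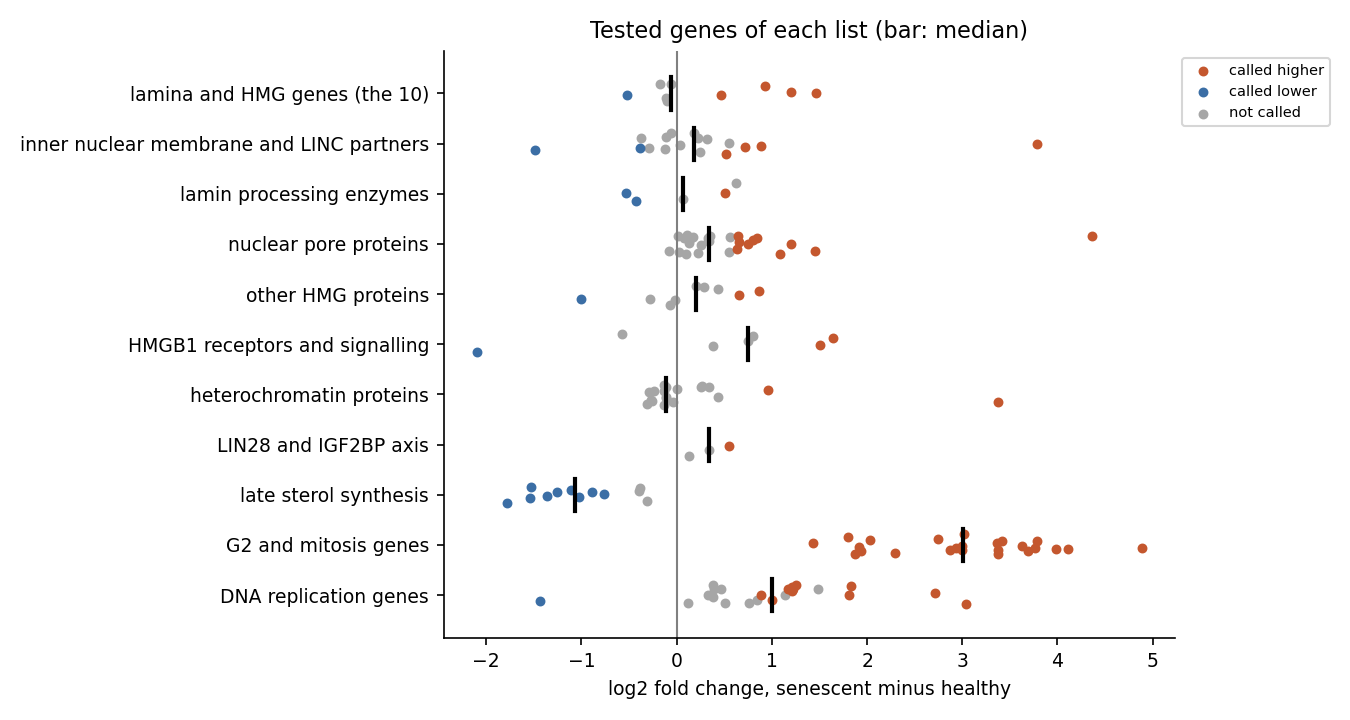
Log2 fold change (horizontal axis, senescent minus healthy) of each tested gene in the 11 lists, coloured by edgeR's call, with a bar at the median of each list. The 9 tested lamina and HMG genes spread from -0.52 to 1.46 around a median of -0.06, and the G2 and mitosis genes lie to the right with a median of 3.01.

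The genes whose pattern over the 6 libraries was most like that of a called member were, by Pearson's r of log2 CPM among 7496 genes of at least 10 CPM, Gm12184 for Lmna (r = 0.9997), Farp2 for Hmgb1 (0.9992), Mob3b for Hmgb3 (0.9992), Cap1 for Hmga1 (0.9948) and Nacc2 for Hmgb2 (0.9738). Their log2 fold changes, in that order, were 0.67, -0.89, 0.49, 0.21 and 0.25, against 1.46, -0.52, 0.47, 1.20 and 0.93 for the members. These likenesses are of pattern and not of size, and are descriptions over libraries that share 1 contrast. For Lmna 1078 genes had an r above 0.9 and for Hmgb1 1162, but for Hmgb2 only 28.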

How the data were processed

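Read counts per gene were deposited by the authors as whole numbers in 1 unnormalised table. STAR 2.7.1a, featureCounts, cutadapt and DESeq2 1.34.0 are named, with the build GRCm38, per the submitters' processing notes. Per the labels' protocols, hepatocytes came from a collagenase perfusion and a density gradient, and directional poly-A libraries were made from 500 ng of RNA with 10 cycles of PCR. Annotation release and strand setting: not given in the sources used here. The column of healthy replicate 2 differs from that sample's code in 1 letter, and results without it are given in the closing section.

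Counts were tested with edgeR 4.0.16 in R 4.3.3 (quasi-likelihood F test, two-sided, no covariate) over 12949 genes that passed filterByExpr (count of 10, total of 15), with TMM scaling. SEs were computed by dividing each log2 fold change by the root of its F. CPM uses the TMM-scaled library size, and FPKM divides it by the exonic length in GENCODE M21 (GRCm38). Symbols were found for 99.7% of IDs. No 2 libraries looked like copies of each other (chi-square over its degrees of freedom 49.48 or more in every pair). Alternatives were DESeq2 1.42.0, limma-voom (limma 3.58.1), other scalings and filters, a block for replicate number, fits that left out 1 library each, fits without mitochondrial genes or without the top 50 by abundance, and a threshold of 0.01. Adding near-identical copies to Hmga1 and Hmgb1 was chosen after seeing the data. Members and lists were chosen with earlier results of these data known. Named from each list were up to 2 risen and 2 fallen called genes with the smallest p, and as most alike the gene of at least 10 CPM with the highest r. Promoter sequences come from RefSeq (GRCm38.p6). Floors and counting limits cover counting error only.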

Additional observations from a re-analysis of the deposited data

How the results depend on the processing

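The calls of Lmna and Hmga1 held in all 17 alternative settings, and that of Hmgb1 in 16. That of Hmgb3 was lost in 4 settings and that of Hmgb2 in 7. With total library size 4861 genes were called higher and 1285 lower (79.1% and 20.9% of calls, against 49.7% and 50.3% with TMM), 0 of the members were lower, 92 listed genes were higher against 57, and the log2 fold changes of Lmnb1, Lmnb2, Lbr and Sun1 turned to 0.27, 0.21, 0.14 and 0.20. At an adjusted p under 0.01, 1570 genes were higher and 1498 lower, and 2 members were higher, which follows from the stricter threshold.

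With each library left out, 1836 to 2691 genes were higher, 1489 (without senescent replicate 3) to 2789 lower, 2 to 4 members higher, 1 lower, 43 to 62 listed genes higher and 12 to 21 lower. Without healthy replicate 2, whose column name departs from its label, 2095 genes were higher and 2096 lower, and of the members 3 were higher and 1 lower. Signs that turned were those of Lmnb1 without senescent replicate 2 (0.25) or healthy replicate 1 (0.34), of Sun1 without the same libraries (0.0087 and 0.028) and of Lmnb2 without healthy replicate 3 (0.0028). At the other end of these fits were -0.36 for Lmnb1 without healthy replicate 3, and -0.17 for Lmnb2 and -0.21 for Sun1 without healthy replicate 2. The cause of these changes was not tested.

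Replicate numbers are shared by the groups. Same-numbered libraries had deviations from their group means that correlated at 0.154, -0.0861 and 0.0859, so the numbers were not taken as pairs. With the replicate block 2576 genes were higher and 2625 lower, 4 members were higher and 1 lower, and 63 listed genes were higher and 16 lower. The depth limits Hmga2, with 2 reads per group, and the low counts of Lmnb1 (65 to 202 reads) and Hmgb2 (84 to 367 reads) go with wide intervals.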

Other observations

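Heterochromatin genes, whose products work beside lamins and HMG proteins, showed few calls. Of 19 tested 2 rose and 0 fell, with a median log2 fold change of -0.12 that was 0.19 with total library size, where 5 rose. Over all genes tested 20.4% were called higher and 20.7% lower (37.5% and 9.92% with total library size). Both genes that rose under TMM scaling act in copying DNA methylation during replication. Uhrf1 went from 0.300 ± 0.214 to 3.22 ± 1.83 CPM (edgeR adjusted p = 0.0029) and the methyltransferase gene Dnmt1 from 9.69 ± 2.11 to 18.9 ± 2.99 CPM (edgeR adjusted p = 0.0052). Uhrf1 passed the read filter only through the senescent libraries, so for it only a rise could be found. Senescent replicate 2, lowest in G2 and mitosis genes, was also the lowest of its group for Uhrf1 and Dnmt1 (1.75 and 15.4 CPM). The part of cycling cells in these values was not tested. In the let-7 and HMGA2 list, Ago2, an argonaute gene, was the only gene of 3 tested that rose (edgeR adjusted p = 0.042), and in 4 of the fits that left out a library it was not called (0.068 without senescent replicate 2, 0.15 without senescent replicate 3, 0.12 without healthy replicate 1 and 0.13 without healthy replicate 2).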
